A study of Mus musculus with 12 samples.

Results

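The heterogeneous nuclear ribonucleoproteins (hnRNPs) were represented by 10 genes, taken by name from a gene count table of 38215 genes: Hnrnpa1, Hnrnpa2b1, Hnrnpc, Hnrnpd, Hnrnph1, Hnrnpk, Hnrnpl, Hnrnpm, Hnrnpu and Ptbp1. The exons of these genes were cut into 338 bins, stretches that no annotated exon border crosses, out of 354841 bins in all. The cells were RAW264.7, a mouse macrophage line of BALB/c origin, so every library came from a single line. They received a nontargeting control siRNA or an siRNA against SF3a1 by nucleofection, and 24 hours later were left without LPS or were given 20 ng/ml lipopolysaccharide (LPS), the bacterial ligand of Toll-like receptor 4, for 4 hours. Crossing the siRNA with LPS gave 4 groups, each with 3 biological replicates. Polyadenylated RNA was sequenced from a single end on the Ion Proton, with replicate 1 of each group combined from 2 runs.

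hnRNPs coat nascent pre-mRNA in the nucleus and, by blocking or recruiting the spliceosome, decide together with other factors which exons and introns are kept. Many of them also control their own mRNA, through exons or introns whose inclusion leads to decay of the transcript. SF3a1 is a subunit of the SF3a complex, part of the U2 small nuclear ribonucleoprotein that recognises the branch point of introns.

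The exon-level results below turn on a few stretches, whose sequences are shown as examples of alternative exons and introns of these genes that were called by edgeR, some of them with the replicates paired but not without. All are on mm10 and run 5′ to 3′ on the strand of the gene, as given by the GENCODE transcripts. Bins are named by the gene and by their number in order of coordinate. Bin 25 of Hnrnpl (chr7:28818533-28818643, plus strand) is a whole intron of 111 nt, a multiple of 3, which a protein-coding transcript retains within its coding sequence. Bin 16 of Ptbp1 (chr10:79858825-79858951, plus strand) is a whole intron of 127 nt. Bins 19 and 20 of Hnrnpm (chr17:33666530-33666646, minus strand) together make a coding stretch of 117 nt that other transcripts remove as an intron. In these 3 the capitals mark the GT at the 5′ end and the AG at the 3′ end.
Hnrnpl bin 25: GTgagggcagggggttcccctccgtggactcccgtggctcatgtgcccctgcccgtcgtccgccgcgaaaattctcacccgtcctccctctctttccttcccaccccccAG
Ptbp1 bin 16: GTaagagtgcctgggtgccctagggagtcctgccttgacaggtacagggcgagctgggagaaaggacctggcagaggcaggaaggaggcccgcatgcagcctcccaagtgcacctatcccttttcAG
Hnrnpm bins 19 and 20: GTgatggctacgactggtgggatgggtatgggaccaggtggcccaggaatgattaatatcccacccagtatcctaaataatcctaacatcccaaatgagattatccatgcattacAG

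Pyrimidines filled 95.0% of the 20 bases before the closing AG in Hnrnpl bin 25, 70.0% in Ptbp1 bin 16 and 55.0% in the Hnrnpm stretch. Over all 2137 tested bins that are whole introns the median was 75.0%, with quartiles of 65.0 and 80.0%. The GC content was 67.57, 61.42 and 46.15% against a median of 52.2%. The other stretches are exons. Bin 13 of Ptbp1 (chr10:79857579-79857695, plus strand) is a cassette exon of 117 nt that occurs only in a noncoding transcript. Bins 33 and 34 of Ptbp1 (chr10:79860117-79860194, plus strand) form an alternative coding stretch of 78 nt, in which the capitals mark bin 34. Bin 41 of Hnrnph1 (chr11:50385141-50385190, plus strand) is a cassette exon of 50 nt within the coding sequence.
Ptbp1 bin 13: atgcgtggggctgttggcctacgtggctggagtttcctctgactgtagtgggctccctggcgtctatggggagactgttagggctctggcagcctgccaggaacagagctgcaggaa
Ptbp1 bins 33 and 34: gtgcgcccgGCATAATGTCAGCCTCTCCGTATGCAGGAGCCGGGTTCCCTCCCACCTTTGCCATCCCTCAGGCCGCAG
Hnrnph1 bin 41: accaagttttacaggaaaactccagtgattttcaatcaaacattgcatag

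Gene counts summed to between 12746019 and 41091887 per library, and replicate 1 was the deepest of its group in all 4 groups. The targeted gene was checked first. Sf3a1 (ENSMUSG00000002129) was at 173, 216 and 185 CPM (a counts-per-million scale adjusted by the trimmed mean of M values) in the control siRNA libraries without LPS, and at 27.1, 27.5 and 32.1 CPM with SF3a1 siRNA. With LPS it was at 150.0, 194 and 157 CPM against 30.3, 26.7 and 45 CPM. The groups did not overlap, with a log2 fold change of −2.73 ± 0.20 (SE) without LPS and −2.30 ± 0.20 with LPS (edgeR's quasi-likelihood test, adjusted p = 1.1e-05 and 1.5e-05). All 7 macrophage markers passed the filter on low counts, while none of 6 markers of other cell types did. The latter (Cd3e, Epcam, Col1a1, Pecam1, Alb and Ncam1) summed to 1 to 53 counts per library, mostly of Pecam1, and Alb was at 0 in all 12. Of the 7 macrophage markers 2 were called without LPS, both higher, and 3 with LPS, 2 higher and 1 lower, where 33.8 and 38.8% of all genes were called. Their summed level was 10348 ± 677 CPM (SD, n = 3 here and for every mean below unless stated) with control siRNA and 13373 ± 654 CPM with SF3a1 siRNA without LPS, and 12542 ± 880 and 14151 ± 2003 CPM with LPS, where the libraries of the groups overlapped. Within each replicate number the SF3a1 library was still the higher with LPS. Spi1, the macrophage transcription factor PU.1, rose by a log2 fold change of 0.59 (adjusted p = 0.0132) and Lyz2, lysozyme, by 0.47 (0.0707) without LPS. With LPS, Spi1 and Csf1r, the M-CSF receptor, rose by 0.61 and 0.69 (0.0101 and 0.00248), while Adgre1, the F4/80 antigen, fell by 0.71 (0.0765) although its groups overlapped. The calls of Lyz2 without LPS and Adgre1 with LPS each held in 3 of 6 fits that left out a library. With the replicate as a block Itgam, an integrin, and Cd14, the LPS co-receptor, were also called, higher without LPS (0.63, adjusted p = 0.0611, and 0.49, 0.0141) and lower with LPS (−0.67, 0.0419, and −0.47, 0.0155). The block also called Cd68 higher with LPS (0.22, 0.0826), and without it these adjusted p-values lay between 0.154 and 0.308. The part of these markers in the hnRNP results was not tested, and in bulk RNA a change in cell number cannot be told apart from a change in RNA per cell.

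All 10 hnRNP genes passed the filter. Per kilobase of exon and without LPS, control cells held most of Hnrnpa2b1 (142 ± 24.1 CPM per kb), followed by Ptbp1 (109 ± 12.9), Hnrnpl (74.8 ± 4.95), Hnrnpu (63.9 ± 15.2), Hnrnpc (58.3 ± 4.94), Hnrnph1 (50.6 ± 2.72), Hnrnpm (49.4 ± 3.44), Hnrnpk (42.9 ± 2.60), Hnrnpd (29.6 ± 7.29) and Hnrnpa1 (14.8 ± 2.28). Neighbours in that order whose replicates overlapped were Hnrnpa2b1 and Ptbp1, Hnrnpl and Hnrnpu, Hnrnpu and Hnrnpc, and Hnrnph1 and Hnrnpm. The level of Hnrnpa1 is uncertain, since only uniquely mapping reads were kept and this gene has near-identical processed copies elsewhere in the genome. The summed level of the 10 genes was 3711.3, 4365.5 and 4278.7 CPM with control siRNA and 3012.0, 3271.8 and 3085.6 CPM with SF3a1 siRNA without LPS, so every SF3a1 library was below every control library. With LPS the sums were 3391.8, 4131.9 and 4092.7 CPM against 3300.7, 3711.4 and 3435.9 CPM, and these overlapped. Within each replicate number the SF3a1 library was the lower.

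**Figure D1:**
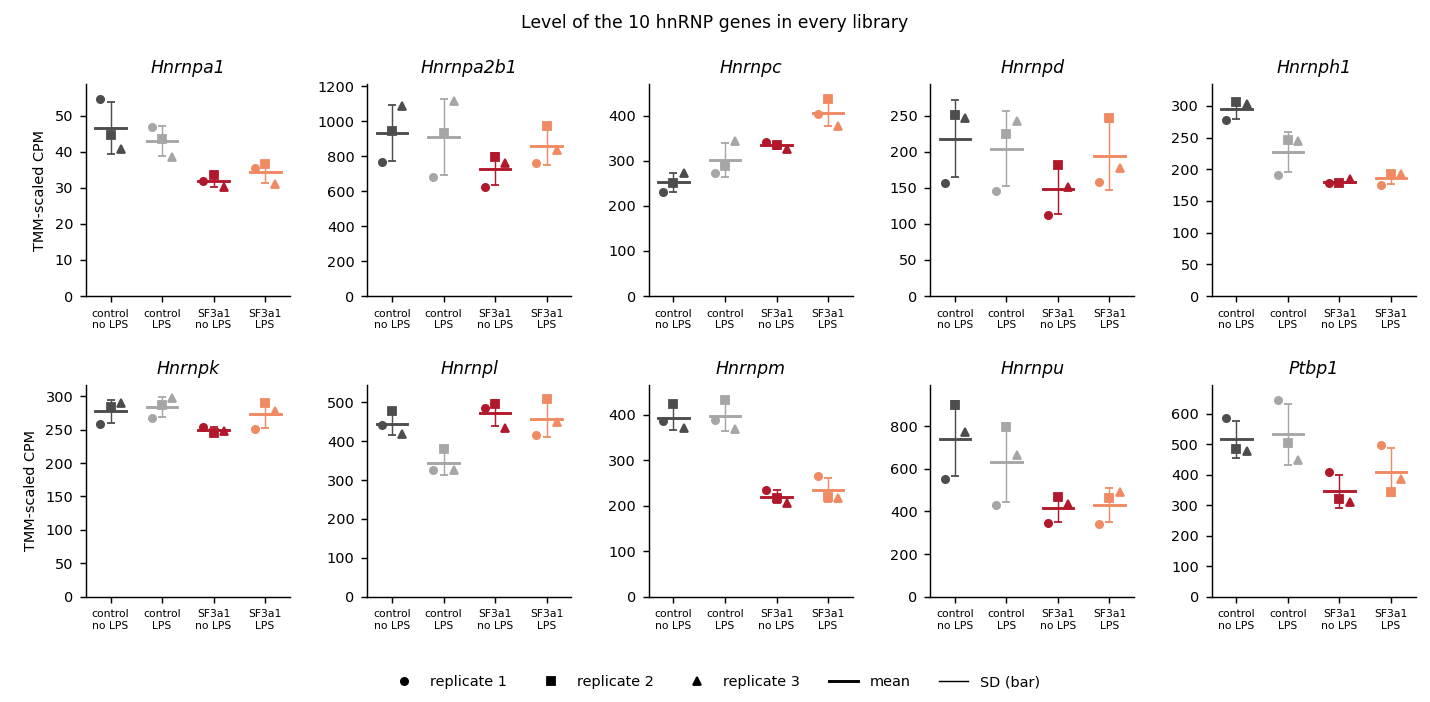
Level of each of the 10 hnRNP genes in the 12 libraries, as scaled CPM (y axis, linear from 0), by group (x axis); points are libraries, horizontal lines are group means and bars the SD. Hnrnpm fell from 385, 423 and 370.0 CPM in the control libraries to 234, 217 and 206 CPM with SF3a1 siRNA, both without LPS.

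The first question was whether the mRNA of these RNA-binding proteins moved when SF3a1 was reduced in resting cells. Without LPS, 6 of the 10 genes were called at a false discovery rate of 0.1, of which 5 fell (Hnrnpm, Hnrnph1, Hnrnpu, Hnrnpa1 and Ptbp1) and 1 rose (Hnrnpc). Among all 14983 tested genes 33.8% were called, 20.1% lower and 13.7% higher. The median log2 fold change was −0.56 over the 10 genes and −0.02 over all genes. The groups did not overlap for 7 of the 10 genes, 6 of them lower and 1 higher, against 45.6% of all genes in either direction. Because samples with the same replicate number deviated together, the fit was repeated with the replicate as a block, which called 8 of the 10, 7 lower and 1 higher, against 47.1% of all genes.

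Hnrnpm, an hnRNP that binds GU-rich RNA and regulates splicing, was the gene with the smallest p of the 10. It was at 385, 423 and 370.0 CPM with control siRNA and at 234, 217 and 206 CPM with SF3a1 siRNA, with no overlap, a log2 fold change of −0.84 ± 0.13 (adjusted p = 0.000595). Hnrnpm overlaps March2 on the same strand, and reads in the shared stretch cannot be told apart. Hnrnph1, which binds runs of G near splice sites and polyadenylation sites, was at 277, 306 and 303 CPM against 179, 178 and 184 CPM. All 3 SF3a1 libraries lay below all 3 controls, and the log2 fold change was −0.71 ± 0.13 (adjusted p = 0.00159).

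Hnrnpu, a scaffold protein that binds both RNA and chromatin, was at 552, 900.0 and 772 CPM with control siRNA and at 344, 467 and 434 CPM with SF3a1 siRNA. The highest SF3a1 library was below the lowest control, and replicate 1 was the lowest library of every group (log2 fold change −0.84 ± 0.24, adjusted p = 0.0231, but 0.145 without control replicate 2). It overlaps Cox20 on the other strand, as Hnrnpd does Gm17092, Hnrnpk Rmi1 and Ptbp1 Plppr3, and without the strand setting of the counting such reads cannot be told apart. Hnrnpa1, a splicing repressor that also shuttles to the cytoplasm, was at 54.7, 44.7 and 40.8 CPM against 31.8, 33.6 and 30.4 CPM. The groups were apart, and the log2 fold change was −0.55 ± 0.15 (adjusted p = 0.0148, and 0.154 without control replicate 1). Ptbp1, the polypyrimidine tract binding protein that represses exons preceded by C- and U-rich tracts, was at 587, 485 and 478 CPM against 408, 319 and 310.4 CPM. The groups again did not overlap and replicate 1 was highest in each, with a log2 fold change of −0.58 ± 0.19 (adjusted p = 0.0369). That call held without SF3a1 replicate 1 and was lost without any other of the 6 libraries, at an adjusted p of 0.101 to 0.209.

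Hnrnpc, the core particle protein that binds U tracts and keeps cryptic exons out of mRNA, was the only gene of the 10 to rise without LPS. It was at 231, 252 and 273 CPM with control siRNA and at 341, 336 and 326 CPM with SF3a1 siRNA. Each SF3a1 library exceeded each control (log2 fold change 0.41 ± 0.13, adjusted p = 0.0348, and 0.207 with no filter on low counts).

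The remaining 4 genes were not called in resting cells. Hnrnpk, a poly(C)-binding protein that acts in transcription, splicing and translation, was at 258, 283 and 290.1 CPM against 254, 245 and 248 CPM. Its groups were narrowly apart, with a log2 fold change of −0.15 ± 0.12 (adjusted p = 0.372). Hnrnpl, which binds CA repeats and regulates splicing of Ptprc in lymphocytes, was at 441, 477 and 419 CPM against 486, 497 and 434 CPM, which overlapped (0.09 ± 0.13, adjusted p = 0.689). Hnrnpa2b1, which splices and sorts RNA, was at 769.9, 944 and 1087 CPM against 622, 797 and 763 CPM. Hnrnpd, also called AUF1, binds AU-rich elements and controls the decay of cytokine mRNAs, and was at 156, 251 and 247 CPM against 112, 181 and 151 CPM. The libraries of these last genes overlapped between groups, and in both genes replicate 1 was the lowest library of every group. Their log2 fold changes of −0.36 ± 0.20 and −0.56 ± 0.26 had adjusted p = 0.203 and 0.136 by edgeR's test, and 0.0326 and 0.00333 with the replicate as a block. Over all alternatives tried the adjusted p ran from 0.0326 to 0.685 for Hnrnpa2b1 and from 0.00333 to 0.441 for Hnrnpd.

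The same comparison after 4 hours of LPS asked whether the shifts were also present in stimulated macrophages. Only 3 of the 10 genes were called, Hnrnpm lower and Hnrnpc and Hnrnpl higher, where 38.8% of all genes were called, 20.4% lower and 18.4% higher. The median log2 fold change was −0.19 over the 10 genes and −0.04 over all genes. Groups were apart for 4 of the 10 genes, 2 in each direction, against 39.1% of all genes. With the replicate as a block 7 of the 10 were called, 5 lower and 2 higher, against 50.9% of all genes.

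Hnrnpm was at 389, 431 and 367 CPM with control siRNA and LPS and at 264, 219.6 and 217 CPM with SF3a1 siRNA and LPS. It fell with no overlap between the groups (log2 fold change −0.76 ± 0.13, adjusted p = 0.00096). Hnrnpc was at 272, 289 and 343 CPM against 405, 437 and 377 CPM, and rose by 0.43 ± 0.13 on the log2 scale (adjusted p = 0.0243). Hnrnpl was at 326, 379.5 and 327 CPM against 417, 509 and 449 CPM. All its SF3a1 libraries lay above its controls, with a log2 fold change of 0.41 ± 0.13 (adjusted p = 0.029). The calls of these 3 genes held without any single library, but with no filter on low counts those of Hnrnpc and Hnrnpl were lost (adjusted p = 0.118 and 0.142).

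Of the genes that fell in resting cells, Hnrnpa1 was at 46.9, 43.5 and 38.5 CPM against 35.5, 36.6 and 31 CPM with LPS, groups that did not overlap (log2 fold change −0.32 ± 0.15, adjusted p = 0.118, block 0.0406). Hnrnph1 was at 190.3, 246 and 244 CPM against 175, 192 and 193 CPM, and the lowest control fell among the SF3a1 libraries (−0.28 ± 0.13, adjusted p = 0.12, block 0.0471). Hnrnpu was at 429, 794 and 667 CPM against 341, 465 and 490.0 CPM. Its SF3a1 libraries overlapped the controls through replicate 1 of the latter (−0.54 ± 0.24, adjusted p = 0.111, block 0.00262). Ptbp1 was at 644, 504 and 449 CPM against 496, 342 and 387 CPM, also with overlap (−0.38 ± 0.19, adjusted p = 0.142, block 0.00923). Over all alternatives the adjusted p reached 0.403, 0.463, 0.382 and 0.412 for these genes in that order, with the block giving the lowest except for Hnrnph1, whose lowest was 0.0272.

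Hnrnpa2b1, Hnrnpd and Hnrnpk were not called with LPS under either fit. Hnrnpa2b1 was at 682, 932 and 1118 CPM against 759, 973 and 835 CPM, Hnrnpd at 145, 225 and 243 CPM against 158, 247 and 178 CPM. Hnrnpk was at 267, 287 and 297 CPM against 250.2, 289 and 278 CPM. The groups of all 3 overlapped, and their log2 fold changes were −0.09 ± 0.20, −0.07 ± 0.26 and −0.06 ± 0.12.

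**Figure D2:**
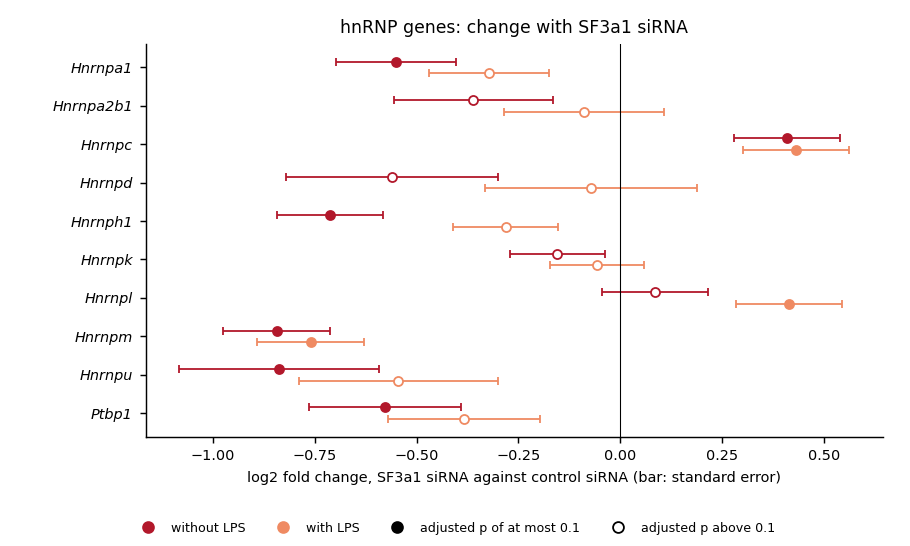
Log2 fold change of SF3a1 siRNA against control siRNA (x axis, with the SE of the fit) for each of the 10 hnRNP genes (y axis), without LPS and with LPS; filled symbols have an adjusted p of at most 0.1. Without LPS 6 genes are filled, 5 to the left of 0 and Hnrnpc to the right, and with LPS Hnrnpm is filled on the left and Hnrnpc and Hnrnpl on the right.

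Whether the SF3a1 effect differed with LPS was tested directly. None of the 10 genes was called by edgeR's test of the difference, where 3.47% of all genes were, and DESeq2 called none. At an unadjusted p under 0.05 there was 1, Hnrnph1, where 1968 of all 14983 tested genes had such a p. Its effect was higher by 0.43 ± 0.18 on the log2 scale with LPS (adjusted p = 0.323, and 0.0998 with the replicate as a block, the lowest of a range up to 0.72 over the alternatives). The difference was above 0 in all 10 genes, from 0.02 in Hnrnpc to 0.49 in Hnrnpd, with a median of 0.25 against 0.04 over all genes. It was also above 0 in 16 of the 20 further hnRNP genes tested below. The share of all genes above 0 was not counted, and the 10 values share the same libraries.

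LPS itself moved few of them. With control siRNA 2 of the 10 genes were called, both lower, against 32.1% of all genes in either direction. Hnrnph1 went from 277, 306 and 303 CPM to 190.3, 246 and 244 CPM, and Hnrnpl from 441, 477 and 419 CPM to 326, 379.5 and 327 CPM, in both cases without overlap. The log2 fold changes were −0.38 ± 0.13 (adjusted p = 0.0445) and −0.37 ± 0.13 (0.0518). The call of Hnrnph1 held in 3 of 6 fits that left out a library and that of Hnrnpl in 2 of 6. It was lost for Hnrnph1 without control replicate 2 or 3 without LPS or control replicate 1 with LPS (adjusted p 0.134 to 0.138), and for Hnrnpl without control replicate 1 or 2 without LPS or control replicate 1 or 3 with LPS (0.12 to 0.185). The other 8 log2 fold changes lay between −0.23 and 0.26. With SF3a1 siRNA LPS moved none of the 10 genes past the threshold, against 10.7% of all genes. None had an unadjusted p under 0.05 by edgeR, where 2878 of all 14983 genes did, and DESeq2 called none. The fit with the replicate as a block called Hnrnpd, higher by 0.40 (adjusted p = 0.0461, up to 0.857 over the alternatives).

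Of 22 further hnRNP genes and close relatives 20 were tested (Ralyl was at 0 in all libraries and Pcbp3 was too low). Without LPS 7 of them fell and 3 rose, and with LPS 5 fell and 5 rose, against the shares of all genes given above. The median log2 fold changes were −0.12 and −0.09. With the replicate as a block 12 and 14 of the 20 were called, against 47.1 and 50.9% of all genes.

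Hnrnph3, a relative of Hnrnph1, was at 20.5, 32.2 and 30.1 CPM with control siRNA and at 7.58, 7.36 and 9.15 CPM with SF3a1 siRNA without LPS. It was at 11.9, 23.1 and 26.8 CPM against 9.17, 9.55 and 8.90 CPM with LPS. It fell without overlap in both, by 1.78 and 1.16 on the log2 scale (adjusted p = 0.000562 and 0.00634). Ptbp2, the paralogue that neurons express in place of Ptbp1 and whose mRNA PTBP1 represses by exon skipping, was at 7.68, 10.9 and 14.1 CPM against 15.5, 20.0 and 24.8 CPM without LPS. With LPS it was at 7.74, 8.74 and 14.5 CPM against 20.9, 26.6 and 30.1 CPM. Each SF3a1 library was above each control, with log2 fold changes of 0.89 ± 0.29 (adjusted p = 0.0378, and 0.147 without SF3a1 replicate 3) and 1.33 ± 0.29 (0.00429).

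The U-like proteins Hnrnpul1 (−0.84 and −0.97) and Hnrnpul2 (−0.84 and −0.57) and the glycine-rich RNA-binding protein Rbmx (−0.59 and −0.51) fell in both comparisons, as did Raly, a relative of Hnrnpc (−0.81 and −0.40). Hnrnpdl, a relative of Hnrnpd, rose in both (0.40 and 0.64), as did Pcbp4, a poly(C)-binding protein with low counts (2.61 and 2.22). Hnrnpa3 (−0.54, adjusted p = 0.0694) and Rbmxl1 (−0.61, 0.0395) fell without LPS, and Hnrnpr (0.54, 0.00707) and Hnrnpll (0.40, 0.052) rose with LPS. Some of these calls were lost without single libraries. Without LPS these were Hnrnpa3 without any library but SF3a1 replicate 2 (0.112 to 0.301), Rbmxl1 without control replicate 1 or 3 or SF3a1 replicate 2 (0.167 to 0.207) and Hnrnpdl without SF3a1 replicate 2 or 3 (0.124 and 0.109). With LPS they were Raly without control replicate 2 or 3 or SF3a1 replicate 1 or 3 (0.219 to 0.299) and Hnrnpll without control replicate 1 or 2 or SF3a1 replicate 2 or 3 (0.105 to 0.154). Whether these effects differed between the LPS conditions was tested too, and none of the 20 was called by edgeR, while with the replicate as a block Hnrnpr was (0.51 higher with LPS, adjusted p = 0.218, block 0.0613).

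**Figure D3:**
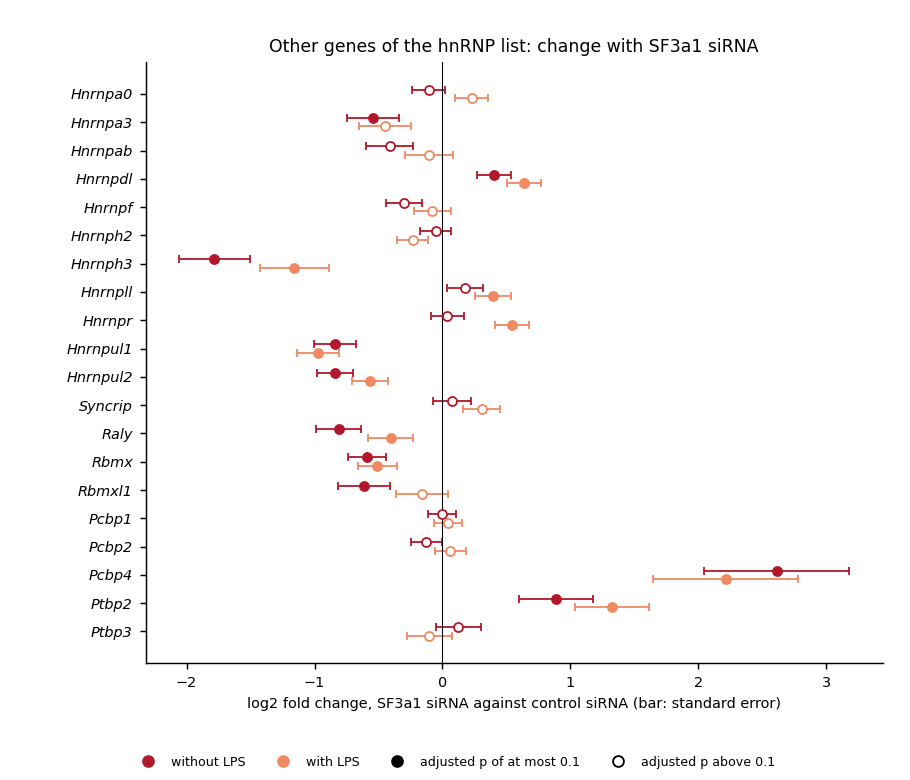
Log2 fold change of SF3a1 siRNA against control siRNA (x axis, with the SE) for the 20 further hnRNP genes tested (y axis), without and with LPS; filled symbols have an adjusted p of at most 0.1. Hnrnph3 lies at −1.78 and −1.16, and Ptbp2 at 0.89 and 1.33.

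The exon bins ask whether the make-up of the transcripts changed. For each bin the share of its gene's bin counts was taken in each library, and the change of a bin was tested relative to the other bins of its gene. The exon counts of control siRNA with LPS covered replicates 1 and 2, so that group has 2 libraries at this level. Of the 338 bins, with 1562237 counts in all, 298 passed the filter. Without LPS 6 of the 298 bins were called (2.01%), against 0.626% of all 153624 tested bins, and with LPS 2 were called (0.671%), against 0.492%. With the replicate as a block the counts were 18 bins (6.04%, against 1.38% of all) and 8 bins (2.68%, against 1.17%). The shares did not overlap between the groups for 46 bins without LPS (15.4%, against 10.8% of all) and for 63 bins with LPS (21.1%, against 21.3%). Called bins lay in Ptbp1 (3 without LPS, 1 with), Hnrnpc (1 and 1), Hnrnpk (1 and 0) and Hnrnpl (1 and 0). The other 6 genes had none without the block.

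Some of the spread was shared between groups: in 57 of the 298 bins replicate 1 was the highest library of all 4 groups, and in 59 it was the lowest. Of the 215 tested bins that could be placed on the genome, 29 (13.5%) were intron bins, in introns that some annotated transcript retains and others remove, against 3.51% of all placed bins. Among the 29, 2 were called without LPS (6.9%), bin 25 of Hnrnpl and bin 16 of Ptbp1, both higher (5 with the block, all higher), and none with LPS (3 with the block, all higher). Over all genes 4.45% of 4247 such bins were called without LPS, 178 higher and 11 lower, and 2.9% with LPS, 116 higher and 7 lower. These shares are without the block. Intron bins over all genes were not counted with it, and of all tested bins it called 1.38 and 1.17%. Bins of Hnrnpa1, Hnrnpc, Hnrnpd and Hnrnpu could not be placed, because the number of bins did not match the annotation used here, and are given by number only.

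Hnrnpl and Ptbp1 each had an intron whose share rose with SF3a1 siRNA without LPS. Bin 25 of Hnrnpl, the intron with 95.0% pyrimidines printed above, took 2.22, 1.06 and 1.14% of the bin counts of the gene with control siRNA and 6.84, 3.61 and 3.03% with SF3a1 siRNA without LPS. The lowest SF3a1 library was above the highest control, and replicate 1 was highest in each group. The log2 change was 1.61 (adjusted p = 0.00117, and 0.173 without SF3a1 replicate 1). That library had 27.2% of its reads outside annotated exons, the highest of the 12. Reads within introns of genes belong to this class. Without LPS this share was higher in the whole group, at 27.2, 21.6 and 20.8% with SF3a1 siRNA against 18.2, 19.6 and 17.8% with control siRNA. With LPS the groups overlapped, at 19.9, 18.2 and 21.4% against 19.8, 19.3 and 17.8%. The part of this in the other bin results and in bin 25 was not tested. With LPS it took 2.33 and 1.24% against 7.51, 3.02 and 2.72%, again without overlap (1.25, adjusted p = 0.158, and 4.74e-07 with the replicate as a block, with a range up to 1.0 over the alternatives). The counts behind these shares were 886, 191 and 201 against 1806, 557 and 313 without LPS, and 602 and 101 against 1999, 438 and 448 with LPS. A second stretch of Hnrnpl, bin 20 (chr7:28815353-28816936, 1584 nt, in a noncoding transcript only), was called only with the block (log2 change 0.68, adjusted p = 0.0445, otherwise up to 1.0).

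Bin 16 of Ptbp1, a retained intron, took 0.0308, 0.0323 and 0.0401% with control siRNA and 0.188, 0.129 and 0.157% with SF3a1 siRNA without LPS. These shares did not overlap but rested on 6 to 16 counts in the control libraries and 12 to 43 in the SF3a1 libraries. The log2 change was 2.24 (adjusted p = 0.0616), and the call was lost without any 1 of the 6 libraries, at 0.135 to 0.345. With LPS the shares were 0.0398 and 0.0639% against 0.0814, 0.237 and 0.208% (1.72, adjusted p = 0.734).

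Other alternative exons of Ptbp1 also moved. Bin 13, the cassette exon of the noncoding transcript printed above, took 0.0289, 0.0054 and 0.01% with control siRNA and 0.276, 0.139 and 0.144% with SF3a1 siRNA without LPS. Every SF3a1 library was above every control, on 1 to 15 control counts and 11 to 63 SF3a1 counts, and the log2 change was 3.40 (adjusted p = 0.000445, called without any single library). Leaving out 1 library gave log2 changes of 2.91 to 4.58. With LPS the shares were 0.0502 and 0.0091% against 0.141, 0.0789 and 0.067% (1.41, adjusted p = 1.0). Bin 11 (chr10:79856339-79856503, 165 nt of coding sequence) took 0.0173, 0.0323 and 0.005% against 0.132, 0.188 and 0.197% without LPS. The groups were far apart, on 1 to 9 control counts and 15 to 30 SF3a1 counts, with a log2 change of 3.16 (adjusted p = 0.00174, called without any single library). With LPS it took 0.0398 and 0.0183% against 0.147, 0.158 and 0.261% (2.41, adjusted p = 0.14, and 0.0142 with the block, up to 0.821 over the alternatives).

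The stretch of 78 nt in the coding sequence of Ptbp1 moved the other way. Bin 34 took 1.12 and 0.667% with control siRNA and LPS and 0.467, 0.227 and 0.208% with SF3a1 siRNA and LPS. The groups did not overlap, and the log2 change was −1.53 (adjusted p = 0.0816), a call lost without control replicate 1 or SF3a1 replicate 2 or 3 (0.536 to 1.0). Without LPS it took 0.782, 0.479 and 0.491% against 0.429, 0.198 and 0.183%, again without overlap (−1.02, adjusted p = 0.679, block 0.00685). Bin 33, the first 9 nt of the stretch, changed by −1.15 without LPS and −1.43 with LPS (adjusted p = 0.477 and 0.169, block 0.00481 and 0.00414). Over the alternatives the adjusted p of both bins reached 1.0 in both comparisons.

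**Figure D4:**
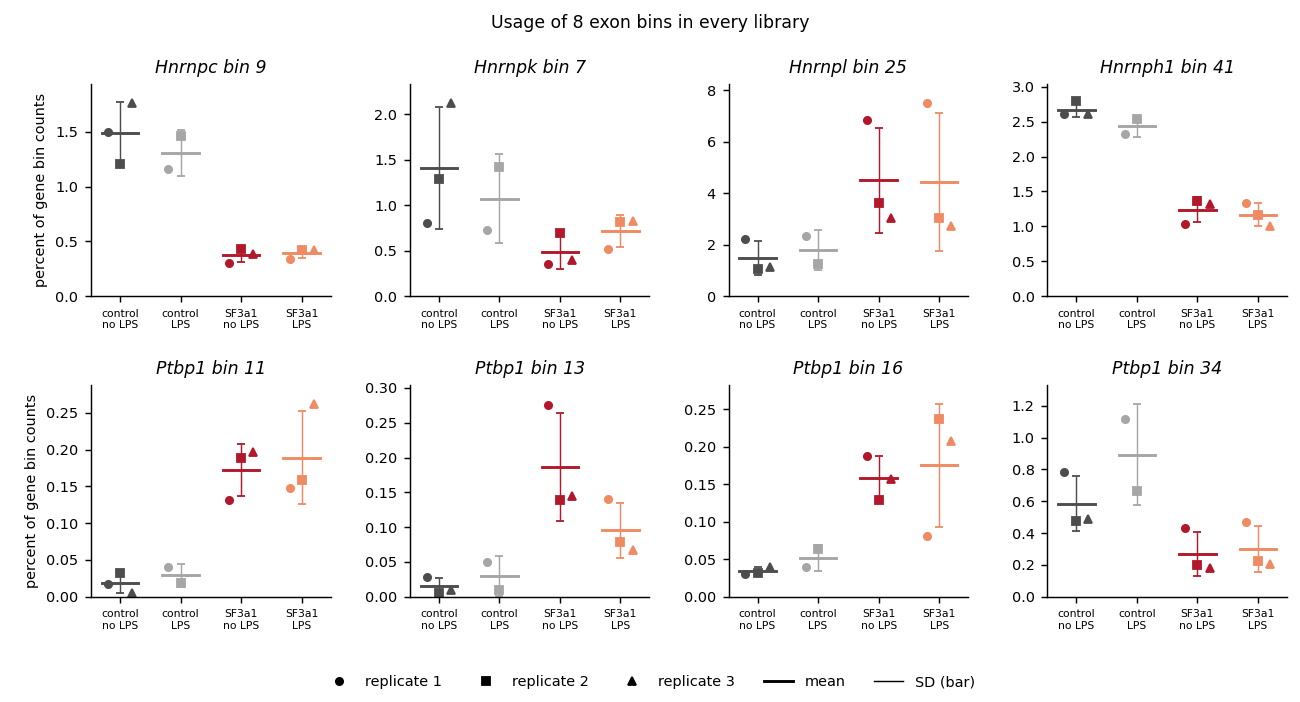
Percent of the gene's bin counts (y axis, linear from 0) in 8 bins of Hnrnpc, Hnrnpk, Hnrnpl, Hnrnph1 and Ptbp1, by group (x axis); points are libraries, horizontal lines are group means and bars the SD. Hnrnpl bin 25 rises from 1.47 ± 0.650% to 4.49 ± 2.05% without LPS and Hnrnpc bin 9 drops from 1.49 ± 0.28% to 0.373 ± 0.0637%.

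The core particle gene Hnrnpc, whose total level rose, had a bin that fell. Bin 9 took 1.50, 1.20 and 1.76% of its counts with control siRNA and 0.304, 0.429 and 0.388% with SF3a1 siRNA without LPS. The highest SF3a1 library was well below the lowest control, on 85 to 198 control counts and 22 to 38 SF3a1 counts (log2 change −2.01, adjusted p = 0.000268, called without any single library). With LPS it took 1.16 and 1.46% against 0.342, 0.420 and 0.422%. These too were apart, with a log2 change of −1.73 (adjusted p = 0.0165, but 0.139 without control replicate 1 and 0.2 without control replicate 2, each of which leaves 1 control library). By its order from the 5′ end, which is the only ground for the match, bin 9 corresponds to the second exon of 26 nt (chr14:52098015-52098040, minus strand) of a 9-exon transcript, ahead of the start codon, which an 8-exon transcript lacks.

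Bin 7 of Hnrnpk (chr13:58392233-58392416, minus strand, 184 nt spanning coding sequence and 3′ UTR) took 0.803, 1.28 and 2.13% with control siRNA and 0.357, 0.696 and 0.399% with SF3a1 siRNA without LPS. The groups did not overlap although the controls were spread widely (log2 change −1.56, adjusted p = 0.0161). The call was lost without control replicate 3 or SF3a1 replicate 1 or 3, at 0.239 to 0.73. With LPS the shares of 0.723 and 1.42% against 0.514, 0.81 and 0.824% overlapped (−0.55, adjusted p = 1.0).

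Hnrnph1 and Hnrnpm had bins that edgeR called with the replicate as a block but not without it, and some of these were also called by limma or with replicates 2 and 3 only. Bin 41 of Hnrnph1, the 50 nt coding exon printed above, took 2.62, 2.80 and 2.61% with control siRNA and 1.03, 1.36 and 1.32% with SF3a1 siRNA without LPS. With LPS it took 2.33 and 2.54% against 1.34, 1.16 and 1.01%. The libraries of each group lay close together and the groups were apart, yet the log2 changes of −1.12 and −1.06 had adjusted p = 0.128 and 0.377. With the block these were 0.000236 and 0.0141, with limma 0.0127 and 0.117, and with replicates 2 and 3 only 0.024 and 0.0424. Over the alternatives they reached 0.625 and 1.0. Bin 31 of Hnrnph1 (chr11:50383740-50383769, 30 nt, intronic in the coding transcripts) went from 0.438 ± 0.0343% to 0.946 ± 0.152% without LPS (1.10, adjusted p = 0.403, block 0.0258, limma 0.0671, up to 1.0 over the alternatives). With LPS its log2 change was 1.12, and it was not called (adjusted p = 0.727, block 0.219, limma 0.336).

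Shares and changes of Hnrnpm bins are relative to its joint unit with March2, and the part of March2 in them was not tested. In that unit the removable coding stretch of Hnrnpm printed above took a larger share with SF3a1 siRNA. Bin 20, its longer part of 76 nt, went from 2.05 ± 0.376% to 3.65 ± 0.762% without LPS, with a log2 change of 0.83 (adjusted p = 0.584, block 0.00651, replicates 2 and 3 only 0.0332). It was at 4.12 ± 0.833% with SF3a1 siRNA and LPS, where the log2 change was 1.09 (0.289, block 0.00301, limma 0.0869). Bin 19, the other 41 nt, changed by 0.80 and 1.03 (adjusted p = 0.86 and 0.528, block 0.0418 and 0.0153). Bin 5 of Hnrnpm (chr17:33646660-33646745, minus strand, 86 nt of coding sequence) went from 0.684 ± 0.0416% to 1.47 ± 0.402% without LPS (1.08, adjusted p = 0.271, block 0.00403, replicates 2 and 3 only 0.00324). With LPS its log2 change was 0.99, and it was not called (adjusted p = 0.808, block 0.11, replicates 2 and 3 only 0.516). Over the alternatives the adjusted p of each of these 3 bins reached 1.0 in both comparisons.

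**Figure D5:**
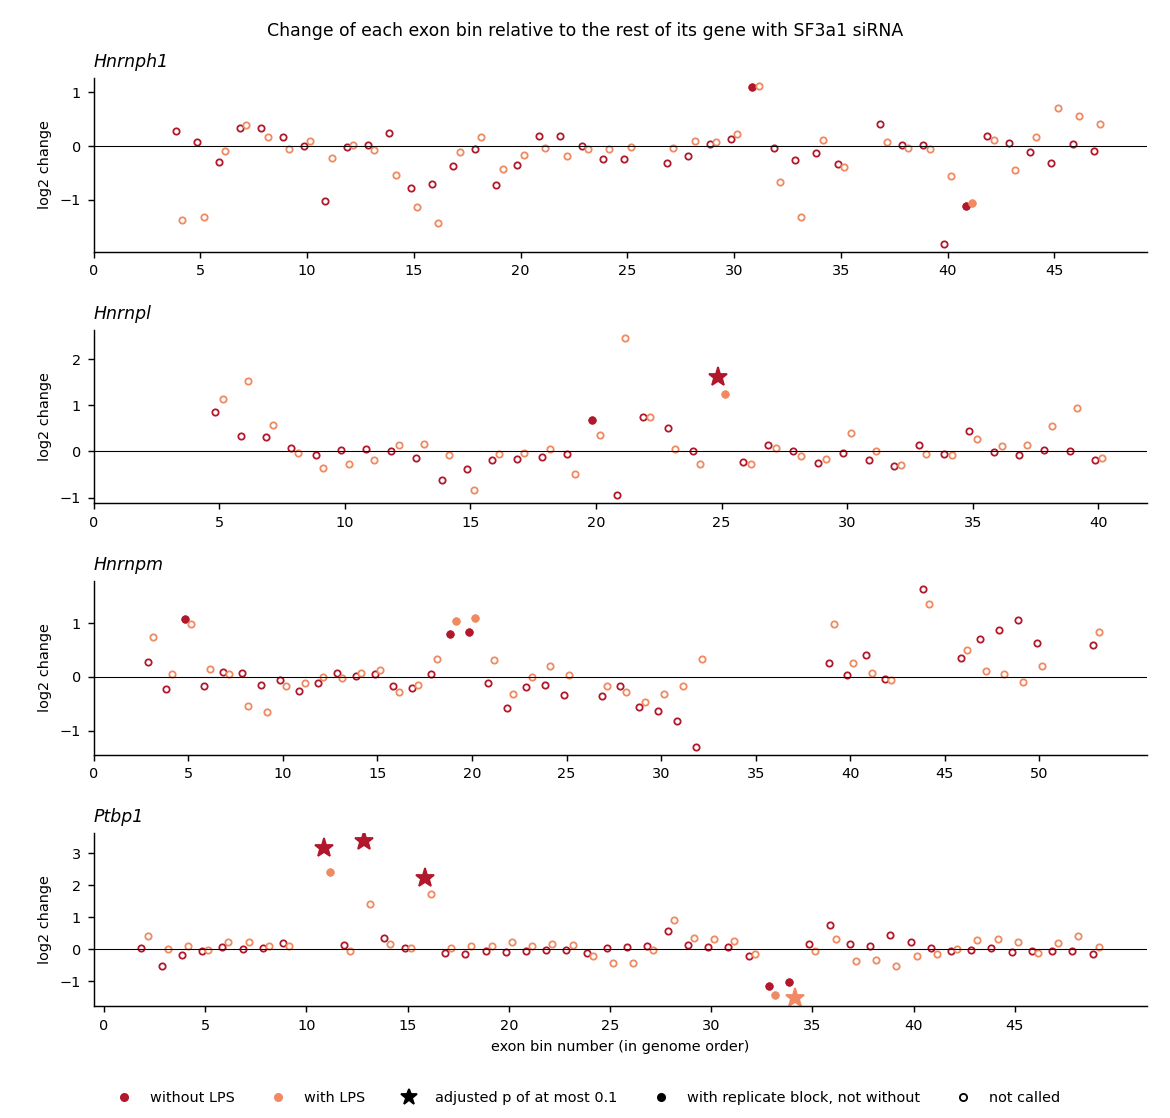
Log2 change of each tested bin relative to its gene (y axis) against the bin's order along the gene (x axis) in Hnrnph1, Hnrnpl, Hnrnpm and Ptbp1, for SF3a1 siRNA against control siRNA without and with LPS; stars mark an adjusted p of at most 0.1 by edgeR, and filled points reach it by edgeR with the replicate as a block but not without. In Ptbp1 bins 11, 13 and 16 stand at 3.16, 3.40 and 2.24 without LPS. For Hnrnpm the change is relative to the joint unit with March2.

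The other 4 genes had no bin called without the block, and for each the bin with the smallest adjusted p in either comparison is given, with some called with the block. Bin 5 of Hnrnpa2b1 (chr6:51463411-51463493, minus strand, 83 nt of coding sequence) had a log2 change of −0.96 without LPS (adjusted p = 0.509, block 0.006, up to 1.0 over the alternatives). In the same gene bin 2 of the 3′ UTR had 2.24 with LPS (adjusted p = 0.413). Bins 25 and 26 of Hnrnpd had −0.76 and −0.78 without LPS and were called only with the block (adjusted p = 0.0204 and 0.0105, up to 1.0 over the alternatives). Without the block bin 2 had the lowest adjusted p of Hnrnpd, 0.825 with LPS at a log2 change of 2.16 (0.961 and 1.62 without LPS). Hnrnpa1 bin 8 changed by 0.79 and 0.73 (adjusted p = 1.0 in both). Hnrnpu bin 7 changed by 2.60 with LPS (adjusted p = 0.474), and its bin 30 by 0.79 without LPS (block 0.0713, up to 1.0 over the alternatives).

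LPS called none of the 298 bins by edgeR. With control siRNA 7 of them had an unadjusted p under 0.05, as did 3025 of all 153624 tested bins. Of all bins 0.0801% were called. With SF3a1 siRNA 1 of the 298 had such a p, as did 1984 of all bins, and 0.0254% of all bins were called. For the difference between the SF3a1 effects 6 of the 298 had an unadjusted p under 0.05, as did 2071 of all bins. Of all bins 0.0% were called. limma called none of the 298 in any of these 3, and neither did the fit with the replicate as a block.

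The 20 further hnRNP genes gave 325 tested bins in 18 of them, of which 4 were called without LPS and 5 with LPS, 10 and 9 with the block. Of all bins 0.626 and 0.492% were called, 1.38 and 1.17% with the block. Bin 9 of Pcbp2, a poly(C)-binding protein, took 3.08, 3.86 and 3.14% with control siRNA and 1.23, 1.11 and 0.83% with SF3a1 siRNA without LPS. With LPS it took 3.66 and 4.14% against 1.20, 0.87 and 1.02%. It fell without overlap in both, by 1.67 and 1.94 on the log2 scale (adjusted p = 0.000133 and 3.7e-05), and was called without any single library. Bin 5 of Hnrnpab (chr11:51601750-51601890, minus strand), a coding cassette exon of 141 nt, fell by 1.09 (adjusted p = 0.0563) and 1.61 (0.00122), and these calls were lost without any library but SF3a1 replicate 1 (0.108 to 0.752) and without control replicate 1 (0.226). Bin 14 of Raly (chr2:154821007-154821089), 83 nt in the 5′ UTR, fell by 1.32 (0.0723, lost without any library but SF3a1 replicate 1 at 0.152 to 0.684) and 1.57 (0.0382, lost without control replicate 1 or SF3a1 replicate 2 or 3 at 0.238 to 0.766). Bin 5 of Hnrnpdl (chr5:100034985-100035425, 441 nt), an intron of the 3′ UTR that some transcripts retain, changed by 1.07 without LPS (0.175) and rose by 1.55 with LPS (0.0338, lost without either control library or SF3a1 replicate 2 or 3 at 0.125 to 1.0).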

How the data were processed

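RNA from the 12 cultures was sequenced by the authors, mapped to mm10 with GSNAP per the submitters' processing notes, and uniquely mapping reads were kept. The authors deposited counts, not normalized, per Ensembl gene (HTSeq, intersection-nonempty) and per exon bin, where a read counts in each bin it overlaps; the strand setting was not given in the sources used here. Reads outside annotated exons, those within introns included (17.75 to 27.20% of reads), stayed out of library sizes and tests. The exon counts of control siRNA with LPS replicate 3 were not analysed here. Bin counts summed to between 17269833 and 59095475 per library. 9577 genes were at 0 in every library.

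Groups follow the sample labels. The 10 genes, the lists and the tests were chosen with earlier results of these data known. Gene counts of all 12 libraries were fitted with edgeR 4.0.16 (R 4.3.3) after filterByExpr, with TMM scaling, the quasi-likelihood test and Benjamini-Hochberg adjustment over all 14983 tested genes, at a false discovery rate of 0.1. CPM are TMM-scaled. Bins were tested with edgeR's diffSpliceDGE over all 153624 tested bins of 11 libraries, since DEXSeq, which the study used, was not at hand. Each bin was tested relative to its gene, or to the joint unit where overlapping genes were counted together, as for Hnrnpm and March2. On simulated counts this bin test was scored by gene, and its share of false calls was above the rate of 0.1 set for bins. Of the genes with a called bin, 38.46% were false in the comparison without LPS and 50% in that with LPS. It recovered 6 and 1% of genes with a 2-fold change, and 50 and 32% of those with a 4-fold change. The simulation changed 100 genes at each fold change in each comparison, while 653 and 534 genes had a called bin in the data. p-values measure the spread between these cultures of a single line. Alternatives were RLE scaling, DESeq2 1.42.0, limma 3.58.1 for bins, no filter for genes, a looser filter for bins (at least 10 counts over the libraries), each library left out, the replicate as a block and, chosen after seeing the data, replicates 2 and 3 only. Same-numbered samples of different groups deviated together from their group means: 18 pairs had correlations of 0.1427 to 0.5997 (median 0.3565), while 36 pairs of different numbers had −0.5233 to 0.3454 (median −0.3081), so the numbers were taken as pairing the samples. Replicate 1 alone was combined from 2 runs. Whether the shared deviations come from that or from paired cultures was not tested.

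Bins were rebuilt from GENCODE transcripts (vM21, mm10), and a gene was placed where the number of bins matched (31693 of 37223 units, 85.144%). Sequences were read from the same transcripts. Per-kilobase levels use the union of annotated exons. Named were all 10 genes and Sf3a1, up to 12 called further hnRNP genes, up to 5 called bins for each of the 10 genes or, with none, the bin with the smallest adjusted p in either comparison, and up to 1 called bin of each further gene; bins of the 10 genes called with the block but not without, and bin 33 of Ptbp1, were named after their values were seen. 1 listed marker of other cell types is not reported here. Other analyses used Python 3.11.15, numpy 2.4.6 and pandas 2.3.3.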

Additional observations from a re-analysis of the deposited data

Results flagged for a closer look

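The SF3a1 effect differed with and without LPS for 3 of the 8 genes that hnRNPs are known to splice (Pkm, Ptprc, Cd44, Fas, Bcl2l1, Tpm1, Ptbp2 and Ptbp3), by edgeR's test of the difference itself. Cd44, the hyaluronan receptor, rose with SF3a1 siRNA by 1.47 on the log2 scale without LPS and had 0.41 with LPS, a difference of −1.06 (adjusted p = 0.0136). Fas, the death receptor, rose by 1.95 without LPS and fell by 1.57 with LPS, a difference of −3.52 (adjusted p = 0.00632). Its control libraries without LPS held only 73, 10 and 41 counts, and LPS raised it 121-fold with control siRNA and 10.6-fold with SF3a1 siRNA. Bcl2l1, whose splice forms oppose each other in apoptosis, rose by 1.27 without LPS and had −0.38 with LPS, a difference of −1.64 (adjusted p = 0.00372). LPS raised Cd44 3.66-fold with control siRNA and 1.76-fold with SF3a1 siRNA, and Bcl2l1 7.98-fold and 2.55-fold. These are differences in the level of the genes, and the part of hnRNPs in them was not tested. All 3 kept their direction and their call under each alternative run for them. Among all genes 3.47% were called for this difference.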

How the results depend on the processing

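The replicate block, which uses the pairing of the replicate numbers, moved the counts of called hnRNP genes from 3 to 7 of 10 with LPS, and from 6 to 8 without LPS. It gave 1 call for LPS with SF3a1 siRNA and 1 for the difference between the SF3a1 effects, each from 0, and moved called bins from 6 to 18 without LPS and from 2 to 8 with LPS. Over all genes it moved the calls for the difference from 520 to 1756 (930 with no filter, 919 with DESeq2, 1012 with replicates 2 and 3 only) and for LPS with SF3a1 siRNA from 1598 to 3115. Over all bins it moved the calls for SF3a1 from 961 to 2113 and from 756 to 1793, and for LPS from 123 to 285 and from 39 to 105. Leaving out 1 library gave 527 to 740 called bins over all genes for SF3a1 without LPS and 101 to 887 with LPS (101 without control replicate 1), and 273 to 711 genes for the difference. Replicates 2 and 3 only, chosen after seeing the data, called 6 hnRNP genes with LPS, 1 for LPS with control siRNA, and 11 and 5 bins. The hnRNP bin counts of this section cover the whole joint unit of Hnrnpm and March2. The main fit thus tested 309 bins here, against the 298 given above. With no filter on low counts LPS with control siRNA called 0 of the 10, Hnrnpc lost its calls (adjusted p = 0.207 and 0.118) as did Hnrnpl with LPS (0.142), and with bins of at least 10 counts 1 bin was called with LPS. Leaving out 1 library gave 4 to 6 called genes without LPS, 3 to 5 with LPS and 0 to 2 for LPS with control siRNA, and 4 to 5 and 0 to 4 bins. The 0 came without control replicate 1 with LPS, 1 without control replicate 2 or SF3a1 replicate 3, and 4 without SF3a1 replicate 1. Where this leaves 1 control library, that library is assumed to vary like the others. Direction turned only in values that were not called, all with LPS unless stated: Hnrnpa1 bin 8 (−0.083 with replicates 2 and 3), Hnrnpu bin 30 (0.025 with the block, −0.78 to 0.28 without 1 library), and without 1 library Hnrnpa2b1 (−0.26 to 0.085), Hnrnpd (−0.28 to 0.070), Hnrnpk (−0.10 to 0.0020) and, without LPS, Hnrnpa2b1 bin 2 (−0.48 to 0.17). The cause was not tested. RLE scaling and DESeq2 each changed 1 of 53 tests of single genes. At these depths bins with under 20 counts in a library, such as those of Ptbp1, limit the precision.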

Other observations

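Of the 8 genes that hnRNPs are known to splice, 4 rose with SF3a1 siRNA without LPS and none fell, where 13.7% of all genes rose and 20.1% fell. With LPS 3 rose and 3 fell, where 18.4% of all genes rose and 20.4% fell. Of these, the calls of Bcl2l1 (−0.38, adjusted p = 0.0864, groups overlapping) and Tpm1 (0.39, 0.0922) held in 2 of 6 fits that left out a library, that of Ptprc (−0.67, 0.0283, also overlapping) in 4 and that of Cd44 (0.41, 0.03) in 5. The tested bins of the 8 genes numbered 175, of which 3 were called without LPS and 2 with LPS (9 and 6 with the replicate as a block), against 0.626 and 0.492% of all bins (1.38 and 1.17% with the block). The called bins without the block lay in 1 gene in each comparison. Bin 14 of Tpm1, a tropomyosin gene with exons that PTBP1 represses (chr9:67028848-67029663), rose by a log2 change of 2.33 without LPS by edgeR's test (adjusted p = 0.0293, and 0.449 to 0.527 without control replicate 1 or 2 or SF3a1 replicate 2). This rested on 4, 1 and 13 control counts and 24, 23 and 11 SF3a1 counts. Whether PTBP1 represses this bin was not tested. With LPS the bin had a log2 change of 1.82 (adjusted p = 0.497). Bin 11 of Cd44 (chr2:102832483-102832572), a coding cassette exon of 90 nt, rose by 3.37 with LPS (adjusted p = 0.000128), on 1 and 14 control counts and 44 to 115 SF3a1 counts, and had 0.97 without LPS (1.0).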
